A study of Mus musculus with 2 samples.

Results

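Calmodulin, its neuronal reservoir neurogranin and the neuronal calcium sensor proteins read calcium signals inside neurons. Their genes were chosen by symbol, and 9 of the 55536 genes in the tables were members: Calm2, Calm3, Nrgn, Hpca, Hpcal1, Hpcal4, Ncald, Vsnl1 and Ncs1. Total RNA was sequenced from the left cerebral cortex of 2 female mice aged 10 days, for which no treatment is given. Both were B6CASTF1/J, an F1 hybrid of a C57BL/6 and a CAST parent, so both alleles of each gene can differ in sequence. Each animal gave 1 library, made from 300 ng of RNA to which ERCC spike-ins were added, and the 2 libraries form a single group of 1 genotype and age. The labels do not say if the mice came from 1 litter or if both libraries were made on the same day. No contrast between groups exists, so no p-value is given and n = 2 throughout.

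Calmodulin is a small protein that binds calcium through EF-hand loops and then wraps around target enzymes and channels. Neurogranin holds calcium-free calmodulin in postsynaptic compartments through its IQ motif and releases it when calcium rises or when protein kinase C phosphorylates it. The neuronal calcium sensor proteins are relatives of calmodulin that carry a myristoyl group on the glycine after the start methionine. Calcium lets many of them expose that group and move to membranes.

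Calm2 and Calm3 encode the same protein from different DNA. Their leading transcripts, Calm2-201 and Calm3-201, each gave a protein of 149 residues with 4 matches to the EF-hand pattern, and the proteins were 100% identical. The coding sequences were 82.6% identical. They differed at 78 of 447 bases, of which 74 were at the last position of a codon. No run of identical bases was longer than 17 within the aligned coding sequences. The first 150 coding bases are shown to let the synonymous changes be seen, with the 23 bases that differ in capitals. All sequences were read 5′ to 3′ from the GENCODE M21 transcripts of build GRCm38. The Calm2 stretch runs over exons 1 to 3 of 6 within chr17:87435819-87446795 on the minus strand, and the Calm3 stretch over exons 1 to 3 of 6 within chr7:16917613-16923843 on the minus strand.
Calm2-201: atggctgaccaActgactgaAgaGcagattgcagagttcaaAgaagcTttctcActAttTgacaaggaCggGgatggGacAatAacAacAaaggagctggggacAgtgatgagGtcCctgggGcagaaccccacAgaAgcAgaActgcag
Calm3-201: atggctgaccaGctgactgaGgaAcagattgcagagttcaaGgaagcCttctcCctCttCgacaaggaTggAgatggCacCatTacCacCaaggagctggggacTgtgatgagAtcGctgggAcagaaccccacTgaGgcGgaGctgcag

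Neurogranin was the shortest of the encoded proteins, with 78 residues and no match to the EF-hand pattern. Its IQ motif, the stretch that binds calmodulin, lay at residues 33 to 43. Coding bases 73 to 153 are shown around it with the motif's codons in capitals. They lie in exon 2 of 4 at chr9:37546037-37546117 on the minus strand.
Nrgn-201: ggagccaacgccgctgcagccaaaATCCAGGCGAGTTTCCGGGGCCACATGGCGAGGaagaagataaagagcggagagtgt

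The 6 sensor proteins had 190 to 193 residues and 3 matches each to the EF-hand pattern. All 6 carried a codon for glycine straight after the start codon, which is the residue that accepts the myristoyl group. The first 45 coding bases are given with that codon in capitals. They lie in exon 2 of 4 for Hpca (chr4:129118697-129118741, minus strand), Hpcal1 (chr12:17786171-17786215, plus), Ncald (chr15:37397390-37397434, minus) and Vsnl1 (chr12:11386932-11386976, minus). For Hpcal4 they lie in exon 3 of 5 (chr4:123188722-123188766, plus), and for Ncs1 in exon 1 of 8 (chr2:31246179-31246223, plus).
Hpca-201: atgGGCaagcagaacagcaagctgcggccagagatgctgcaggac
Hpcal1-201: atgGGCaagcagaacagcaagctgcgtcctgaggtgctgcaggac
Hpcal4-201: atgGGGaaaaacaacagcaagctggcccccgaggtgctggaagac
Ncald-203: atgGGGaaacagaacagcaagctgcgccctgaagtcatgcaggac
Vsnl1-201: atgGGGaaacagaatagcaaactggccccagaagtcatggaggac
Ncs1-201: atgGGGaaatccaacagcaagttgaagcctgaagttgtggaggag

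Protein identity over the 15 pairs of sensors ran from 55.2% for Hpcal4 and Ncs1 to 93.8% for Hpca and Hpcal1, with a median of 66.7%. Hpcal1 and Ncald shared 89.6% of residues, Hpca and Ncald 88.1%, and Hpcal4 and Vsnl1 89.5%. Ncs1 was the most distant of the 6, at 55.2% to 58.0% from the others. Calmodulin shared only 20.1% to 22.9% of residues with the sensors. Hpca and Hpcal1, the closest pair, differed at 81 of 579 coding bases, 62 of them at the last codon position, and the longest identical run was 38 bases. Coding bases 46 to 195 are shown because this pair of near-identical proteins came from genes with very different RNA levels. The 21 bases that differ are in capitals. Both stretches lie in exon 2 of 4, at chr4:129118547-129118696 on the minus strand for Hpca and chr12:17786216-17786365 on the plus strand for Hpcal1.
Hpca-201: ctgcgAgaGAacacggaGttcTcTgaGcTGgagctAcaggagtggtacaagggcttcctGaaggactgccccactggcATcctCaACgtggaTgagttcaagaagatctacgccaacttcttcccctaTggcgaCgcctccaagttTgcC
Hpcal1-201: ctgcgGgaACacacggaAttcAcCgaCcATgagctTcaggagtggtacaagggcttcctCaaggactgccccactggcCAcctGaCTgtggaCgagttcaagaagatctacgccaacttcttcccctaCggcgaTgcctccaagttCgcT

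The libraries held 29867112 and 31031340 expected reads over genes. The labels give them as biological replicates 1 and 2, and their counts were not identical, with a chi-square of 12.03 per degree of freedom over 18273 genes. All 8 pan-neuronal, all 8 glutamatergic and all 8 GABAergic marker genes reached 1 TPM in each library. TPM is a transcript level scaled by length and library size. At the same limit 7 of 8 striatal, 5 of 8 thalamic, 4 of 8 hippocampal and 4 of 8 cerebellar markers were detected. Detection at this limit therefore cannot establish the region. Glutamatergic markers summed to 871 and 871 TPM in replicates 1 and 2, and GABAergic markers to 355 and 328 TPM. The 7 oligodendrocyte markers used, genes of myelin-forming cells, summed to 151 TPM in replicate 1 and 298 TPM in replicate 2, and none was at 0. Of the 5 that averaged 100 reads, all 5 were lower in replicate 1, with a median log2 ratio of -1.40, and 3 (Mog, Mag and Mobp) by 2-fold or more. Striatal markers summed to 119 and 93.6 TPM, with none of 7 tested 2-fold apart. In bulk tissue, fewer cells of a type and less RNA per cell cannot be told apart.

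All 9 genes were detected, that is, reached 1 TPM in each library. Their median level was 219 TPM in replicate 1 and 259 TPM in replicate 2 (239 ± 28.3 TPM, mean ± SD). The median over the 13003 protein-coding genes detected was 17.1 and 15.9 TPM. Together the 9 genes took 0.789% of the TPM of nuclear protein-coding genes in replicate 1 and 0.870% in replicate 2. The levels fell into a top group of Calm2, Calm3 and Nrgn and a middle group of Vsnl1, Hpca and Ncald. Hpcal4 and Ncs1 were lower, and Hpcal1 stood apart below them. The step from Ncs1 down to Hpcal1 was 4.46-fold on average, with 2.83-fold in replicate 1 and 7.03-fold in replicate 2.

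**Figure D1:**
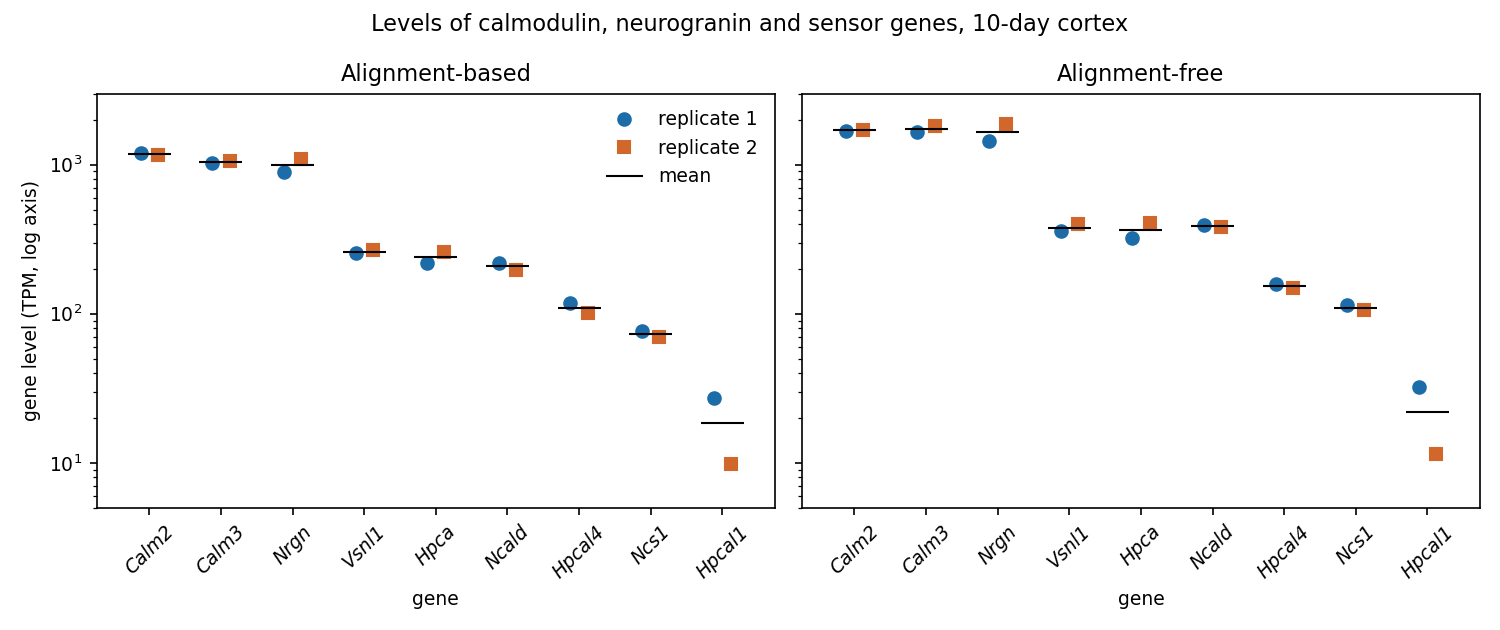
Levels of the 9 genes in TPM on a log axis, for the alignment-based tables on the left and the alignment-free tables on the right. Circles are replicate 1, squares replicate 2 and lines their mean; Calm2, Calm3 and Nrgn stand above the 6 sensors in both panels, and Hpcal1 shows the widest gap between libraries, with 27.0 and 9.85 TPM in the alignment-based tables.

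Calm2 (ENSMUSG00000036438, chr17:87433412-87446935, minus strand) stood at 1189 TPM in replicate 1 and 1168 TPM in replicate 2, or 1178 ± 14.8 TPM. It ranked 7 among 22015 nuclear protein-coding genes. Calm3 (ENSMUSG00000019370, chr7:16915379-16924114, minus strand) stood at 1022 and 1053 TPM, or 1037 ± 22.1 TPM, and ranked 12. The libraries were close for both genes, and the libraries of Calm2 lay above those of Calm3 without overlap. Calm2 was 1.14-fold above Calm3 on average, with 1.16-fold in replicate 1 and 1.11-fold in replicate 2, which was beyond the replicate spread. A pair was counted as beyond the spread where its log2 ratio, with 0.1 added to each TPM, had 1 sign in both libraries and a mean above 2 SD.

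That order did not hold in the alignment-free tables. There Calm2 had 1693 and 1712 TPM and Calm3 1644 and 1803 TPM, a ratio of 0.989 that was not beyond the spread. The genes also took different numbers of reads for like TPM levels. Calm2 had 24520 and 26300 expected reads on a transcript of 1205 bases, and Calm3 had 41606 and 47110 on 2290 bases. The sum of both genes was 2210 TPM in replicate 1 and 2220 TPM in replicate 2. A further difference between the quantifications lay in Calm3-204, a transcript of 482 bases with no coding sequence. It held 9.59% and 9.88% of Calm3 TPM in the alignment-free tables, against 0.323% and 0.242% in the alignment-based ones.

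Nrgn (ENSMUSG00000053310, chr9:37544492-37552904, minus strand) had 887 TPM in replicate 1 and 1094 TPM in replicate 2, or 991 ± 147 TPM, and ranked 16. By alignment it was below both calmodulin genes in replicate 1, and between them in replicate 2. Against Calm2 its ratio was 0.746 in replicate 1 and 0.937 in replicate 2, and against Calm3 0.869 and 1.04, so the sign for Calm3 turned between the libraries. Neither ratio was beyond the spread. Relative to the sum of Calm2 and Calm3, Nrgn stood at 0.401 in replicate 1 and 0.493 in replicate 2. In the alignment-free tables Nrgn had 1439 TPM in replicate 1, below both calmodulin genes, and 1874 TPM in replicate 2, above both. There too its ratios to Calm2 and Calm3 were not beyond the spread.

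Other small proteins bind calmodulin through IQ motifs as well, and their genes were below Nrgn. Gap43, the growth-cone protein of axons, had 575 and 520 TPM, and Nrgn was 1.80-fold above it (1.54-fold in replicate 1 and 2.11-fold in replicate 2). Pcp4 had 208 and 209 TPM, with Nrgn 4.73-fold above it. Both ratios were beyond the spread in both quantifications. Pcp4l1, a relative of Pcp4, was at 13.8 and 10.6 TPM.

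Among the sensors, Vsnl1 was the highest in the alignment-based tables. The gene (ENSMUSG00000054459, chr12:11325242-11436613, minus strand) encodes visinin-like protein 1, which is abundant in neurons and regulates receptor traffic. It had 255 and 267 TPM, or 261 ± 8.27 TPM. Hpca (ENSMUSG00000028785, chr4:129111570-129122036, minus strand) encodes hippocalcin, a sensor of pyramidal neurons tied to the slow afterhyperpolarization. It had 218 TPM in replicate 1 and 259 TPM in replicate 2, or 238 ± 29.3 TPM. Ncald (ENSMUSG00000051359, chr15:37366175-37792570, minus strand) encodes neurocalcin delta, which binds clathrin. It had 219 and 197 TPM, or 208 ± 15.9 TPM. These levels overlapped between neighbours: Vsnl1 over Hpca averaged 1.10-fold and Hpca over Ncald 1.14-fold, and neither was beyond the spread.

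The alignment-free tables placed Ncald first among the sensors, with 395 and 380 TPM, ahead of Vsnl1 with 358 and 397 TPM and Hpca with 324 and 404 TPM. The order within this middle group therefore depended on the quantification.

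Hpcal4 (ENSMUSG00000046093, chr4:123183227-123194701, plus strand) encodes visinin-like protein 2, a sensor that modulates presynaptic calcium channels. It had 117 and 101 TPM, or 109 ± 11.9 TPM. Ncs1 (ENSMUSG00000062661, chr2:31245823-31295989, plus strand) encodes neuronal calcium sensor 1, which binds a phosphatidylinositol 4-kinase and acts in transmitter release. It had 76.8 and 69.8 TPM, or 73.3 ± 4.94 TPM. Ncald was 1.91-fold above Hpcal4, and Hpcal4 was 1.48-fold above Ncs1. Both steps were beyond the spread in both quantifications.

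Hpcal1 (ENSMUSG00000071379, chr12:17690856-17791933, plus strand) encodes hippocalcin-like 1, also called visinin-like protein 3. It was the lowest of the 9 genes in both libraries, with 27.0 TPM in replicate 1 and 9.85 TPM in replicate 2, or 18.4 ± 12.2 TPM, and ranked 6051. The mean was thus near the median of detected protein-coding genes. Although the encoded proteins are 93.8% identical, Hpca was 8.02-fold above Hpcal1 in replicate 1 and 26.0-fold above it in replicate 2. Ncald was above Hpcal1 by 12.6-fold on average. These ratios kept their sign in both libraries and both quantifications, and were larger in replicate 2.

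Of the 8 neighbouring pairs in the order of levels, 4 were beyond the spread in the alignment-free tables and 5 in the alignment-based ones. The steps from Calm3 to Nrgn, from Vsnl1 to Hpca and from Hpca to Ncald were not beyond it in either. The 6 sensors summed to 913 TPM in replicate 1 and 903 TPM in replicate 2, or 0.413 and 0.406 of the sum of Calm2 and Calm3. Of 13 pairs set by role, 8 were beyond the spread in the alignment-free tables and 9 in the alignment-based ones. Among the 9, Hpca was 2.18-fold above Hpcal4, Vsnl1 2.40-fold above Hpcal4, Vsnl1 3.56-fold above Ncs1 and Hpca 3.24-fold above Ncs1.

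The libraries were then compared gene by gene, as log2 of replicate 1 over replicate 2 on expected counts scaled by TMM. Of the 9 members, 1 was 2-fold or more apart, Hpcal1, and it was higher in replicate 1. Among all 12689 genes with a mean of 100 reads or more, 0.37% were 2-fold or more apart in either direction, and 0.181% were that much higher in replicate 1. The median log2 ratio was -0.08 over the members and -0.01 over all genes. The median size of the log2 ratio, regardless of sign, was 0.16 over the members and 0.09 over all genes.

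**Figure D2:**
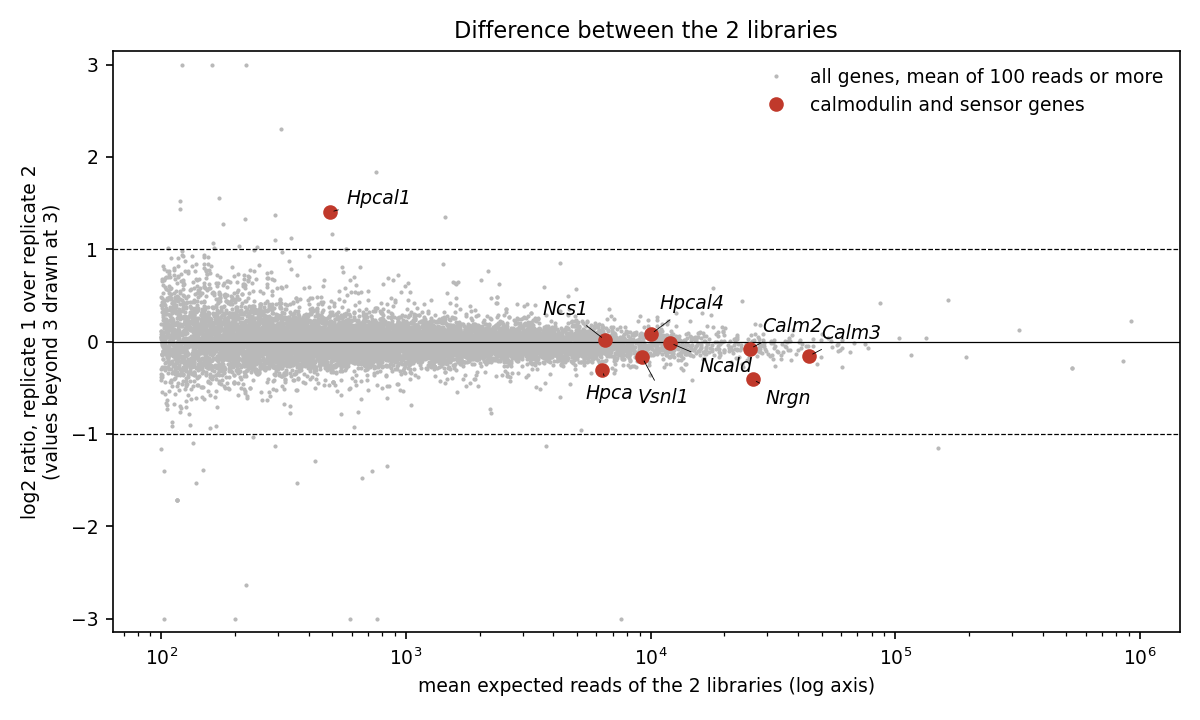
Log2 ratio of replicate 1 over replicate 2 against mean expected reads (log axis) for the 12689 genes with a mean of 100 reads or more (grey) and the 9 calmodulin and sensor genes (red); dashed lines mark 2-fold. Hpcal1 lies at 1.40, while Nrgn at -0.41 and Hpca at -0.31 lie below most genes of like read number.

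Hpcal1 had 705 expected reads in replicate 1 and 271 in replicate 2. After scaling, it was 2.64-fold higher in replicate 1, a log2 ratio of 1.40 with a counting interval (95%) of 1.20 to 1.61. The deposited credible intervals, 24.2 to 28.4 TPM in replicate 1 and 8.45 to 10.97 TPM in replicate 2, were apart. Among 4744 genes with between 0.5 and 2 times its read number, 7, or 0.148%, had a larger ratio in either direction. In the alignment-free tables Hpcal1 had 32.05 TPM in replicate 1 and 11.5 TPM in replicate 2, and a log2 count ratio of 1.43. Over the other scalings tried, spike-ins included, it stayed between 1.39 and 1.43.

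The difference lay in the leading transcript. Hpcal1-201 had 692 reads in replicate 1 and 259 in replicate 2. The shorter Hpcal1-202, which starts 37370 bases downstream and is incomplete at its end, had 12.6 and 12.2 reads. Its share of Hpcal1 TPM was 4.18% in replicate 1 and 10.1% in replicate 2.

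Hpcal1 also has 22 near copies, all on chromosome 12, the chromosome of the gene itself. A near copy here is another gene with a transcript matching a member's transcript at 90% identity or more over 200 bases or more, and for Hpcal1 most are unprocessed pseudogenes that match its coding sequence. Reads were assigned to 13 of them: Gm5784, 3110053B16Rik, Gm49329, Gm20336, Gm47446, Gm9265, Gm6943, Gm9269, Gm21941, Gm49698, Gm9237, Gm9158 and Gm48355. Gm5784 had 137 and 101 reads and 3110053B16Rik 107 and 97.7 reads. Summed over the copies, there were 373 reads in replicate 1 and 344 in replicate 2, so that their total did not show the 2.64-fold gap of the gene. None of the 100-base windows of Hpcal1-201 occurred in a transcript of another gene. How reads were divided between Hpcal1 and its copies is not stated in the labels or headers, and its level is uncertain to that extent.

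Nrgn had 22221 reads in replicate 1 and 29973 in replicate 2, a log2 ratio of -0.41 or 1.33-fold lower in replicate 1. Among 249 genes with like read numbers, 3, or 1.20%, had a larger ratio. For Hpca the reads were 5619 and 7055, with a log2 ratio of -0.31, and 25 of 1737 genes with like read numbers, or 1.44%, had a larger one. Both were below 2-fold. Calm3, at -0.16, and Vsnl1, at -0.17, were also lower in replicate 1 by counts, but for them 18.3% and 10.7% of like genes had a larger ratio. Calm2 at -0.08, Hpcal4 at 0.08, Ncald at -0.01 and Ncs1 at 0.02 lay within the bulk of genes. For Calm2 and Ncald the TPM was higher in replicate 1 while the scaled counts were lower, and the sign of Ncald turned to 0.02 when total counts were used for scaling.

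Oligodendrocyte markers moved between the libraries in the same direction as Nrgn and Hpca, and striatal markers, with a median log2 ratio of 0.25, in the same direction as Hpcal1. Glutamatergic markers had a median log2 ratio of -0.15, with 1 of 8 higher in replicate 1. These directions were shared with other lists. Medians were also above 0 for cerebellar (0.12), thalamic (0.11) and hippocampal (0.08) markers. They were below 0 for astrocyte (-0.12), microglial (-0.08), endothelial (-0.07), pan-neuronal (-0.02) and GABAergic (-0.003) markers. The part of cell composition or of the dissected area in these differences was not tested.

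Transcript use was compared between the libraries and between the alignment-based and alignment-free tables. The leading transcript was not the same in all 4 tables for 1 of the 9 members, Hpca. This was so for 30.6% of the 7886 protein-coding genes with at least 2 transcripts and 10 TPM or more. For Calm2, Calm3, Nrgn, Hpcal1, Hpcal4, Vsnl1 and Ncs1 the same transcript held at least 89.9% of the gene's TPM in every table.

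Hpca was given as Hpca-201 by the alignment-based tables, with 80.9% of TPM in replicate 1 and 75.7% in replicate 2. The alignment-free tables placed 0 reads on that transcript. Instead, Hpca-202 held 33.1% in replicate 1, where it led, and 6.95% in replicate 2. Hpca-209 held 18.9% in replicate 1 and 39.0% in replicate 2, where it led. Hpca-204 had 26.5% and 30.2%. These transcripts differ in where they start: relative to Hpca-201, Hpca-204 begins 745 bases upstream, Hpca-209 begins 449 bases upstream and Hpca-202 begins 2324 bases downstream. They share the coding sequence. Transcripts that encode the protein of Hpca-201 together held 83.1% and 82.3% of Hpca TPM without alignment, against 99.7% and 100% with it. The rest of the alignment-free TPM, 16.9% and 17.7%, was on Hpca-205, which is incomplete at its end. The gene's start site was thus read differently by the quantifications, and no transcript is named as its main one here.

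Ncald had the most transcripts, 12, and the widest gene, and by alignment its leading transcript had the lowest share of the 9. Its leading transcript, Ncald-203, held 42.4% and 39.6% of TPM in the alignment-free tables, and 56.6% and 54.9% in the alignment-based ones. Transcripts starting within 0.808 kb of Ncald-203 held 70.4% in replicate 1 and 67.3% in replicate 2 by alignment. Those from the distal start sites, about 333 kb upstream, held 26.4% and 32.6%. In the alignment-free tables the proximal transcripts had 49.2% and 51.0% and the distal ones 47.9% and 48.7%. The libraries thus differed little while the quantifications gave the distal sites different weight. Much of that difference was on Ncald-208, an incomplete distal transcript with 23.6% and 18.0% by the alignment-free route, against 3.03% and 3.75% by alignment. Transcripts from sites about 275 kb upstream had at most 3.16% in any table.

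**Figure D3:**
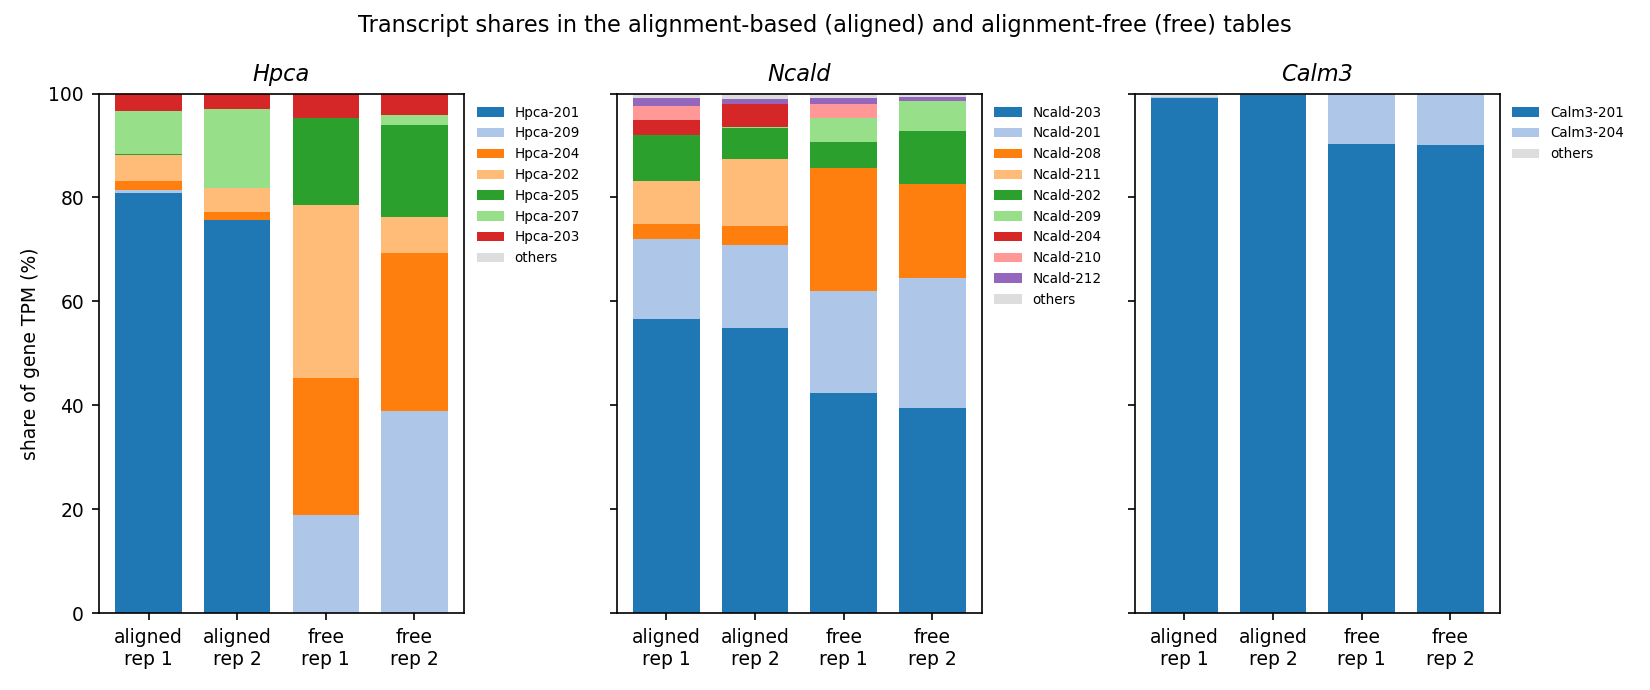
Share of gene TPM (percent) held by each annotated transcript of Hpca, Ncald and Calm3 in the alignment-based tables (aligned) and alignment-free tables (free) of each replicate; transcripts under 1% in both are pooled as others. Hpca-201 leads the aligned bars with 80.9% and 75.7% and is absent from the free bars, while Calm3-204 reaches 9.59% and 9.88% in the free bars, against 0.323% and 0.242% in the aligned ones.

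At the gene level the quantifications were closer. After both were rescaled to nuclear protein-coding genes, 0 of the 9 members were 2-fold apart between them, against 1.79% of 10629 genes at 10 TPM or more. The median log2 ratio, alignment-free over alignment-based, was -0.09 over the members and -0.09 over all genes. Hpcal1 was the furthest from 0, at -0.42, and Ncald was the highest, at 0.22.

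Gene overlaps and near copies touched the other members little. Ncald, with 11831 and 12138 reads, overlaps 11 annotated genes, of which Gm49311 had the most, 65 and 41 reads. Hpca overlaps Tmem54 on the opposite strand, and Tmem54 was listed at 0 reads in both libraries. Calm2 has near copies Gm7308, with 15.1 and 20.9 reads, and Gm15720, with 1.15 and 7.67 reads. For Calm3 the copy Gm5881 had 10.6 and 13.8 reads. Windows of 100 bases shared with another gene made up 0.995% of Calm2-201 and 0.137% of Calm3-201, and 0 of the leading transcripts of the other 7 genes.

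RNA of many proteins that calmodulin and the sensors act on was present in the same libraries. None of the genes in the partner and family lists that averaged 100 reads was 2-fold apart between libraries, against 0.37% of all genes. Of 15 calmodulin-dependent kinase genes and their kin, 14 were detected, with a median of 54.2 ± 1.5 TPM. The highest were Camk2a (524 and 490 TPM) and Camk2b (391 and 378 TPM), the main subunits of the synaptic kinase CaMKII, and Camkv (215 and 208 TPM), a kinase-like protein. Mylk3, a muscle myosin kinase, was the lowest at 1.16 and 0.81 TPM.

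Calcineurin, the calcium-dependent phosphatase, and its regulators had 7 of 8 genes detected, with a median of 29.6 ± 0.410 TPM. Its brain subunits led, with Ppp3ca at 264 and 267 TPM, Ppp3r1 at 225 and 213 TPM and Ppp3cb at 214 and 193 TPM. Ppp3r2, a testis subunit, was the lowest, at 0.89 and 0.30 TPM. All 7 genes of calmodulin-regulated cyclases, phosphodiesterases and nitric oxide synthase were detected. Adcy1, a cyclase that calmodulin stimulates, stood at 239 and 269 TPM, above Pde1a (51.3 and 43.0 TPM), Pde1b (35.6 and 29.2 TPM) and the lowest, Pde1c (2.04 and 1.84 TPM).

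Genes listed here as partners of the sensors were all detected, 8 of 8, with a median of 35.7 ± 0.343 TPM. Dlg4, the postsynaptic scaffold PSD-95, had 429 and 456 TPM, Ap2b1, an endocytic adaptor subunit, 169 and 148 TPM, and Pi4ka, a phosphatidylinositol 4-kinase, 97.8 and 91.9 TPM. Pi4kb, a further phosphatidylinositol 4-kinase, had 24.5 and 21.1 TPM. RNA levels do not show which of these kinases Ncs1 binds. Il1rapl1, a synaptic receptor-like protein that binds Ncs1, was the lowest, at 18.1 and 14.1 TPM.

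Relatives of the sensors were lower than every sensor but Hpcal1. Of the 7 other genes of the family, 5 were detected: Kcnip1 to Kcnip4, which encode potassium channel partners, and Rcvrn. Kcnip2 led at 56.2 and 53.8 TPM, ahead of Kcnip3 at 30.4 and 27.1 TPM and Kcnip4 at 25.5 and 24.2 TPM. The photoreceptor sensor Rcvrn, recoverin, was at 1.36 and 1.04 TPM, and Guca1a, a guanylate cyclase activator of the retina, was the lowest at 0.14 and 0.25 TPM.

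Calmodulin-like genes, calcium-binding proteins of the CaBP group and centrins were mostly under 1 TPM, with 5 of 12 detected and a median of 0.230 ± 0.0778 TPM. Cetn3, a centrosomal protein, had 96.3 and 94.4 TPM, Caln1 85.8 and 76.9 TPM, and Cabp1, a neuronal relative of calmodulin, 53.7 and 54.5 TPM. Calml3, Calm5 and Cabp2 were at 0 reads in both libraries. A count of 0 allows up to 3 reads. For the 9 members, none of which was at 0, 3 reads correspond to 0.0308 to 0.145 TPM. That range depends on their lengths, and the limit in TPM was not worked out for Calml3, Calm5 and Cabp2.

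**Figure D4:**
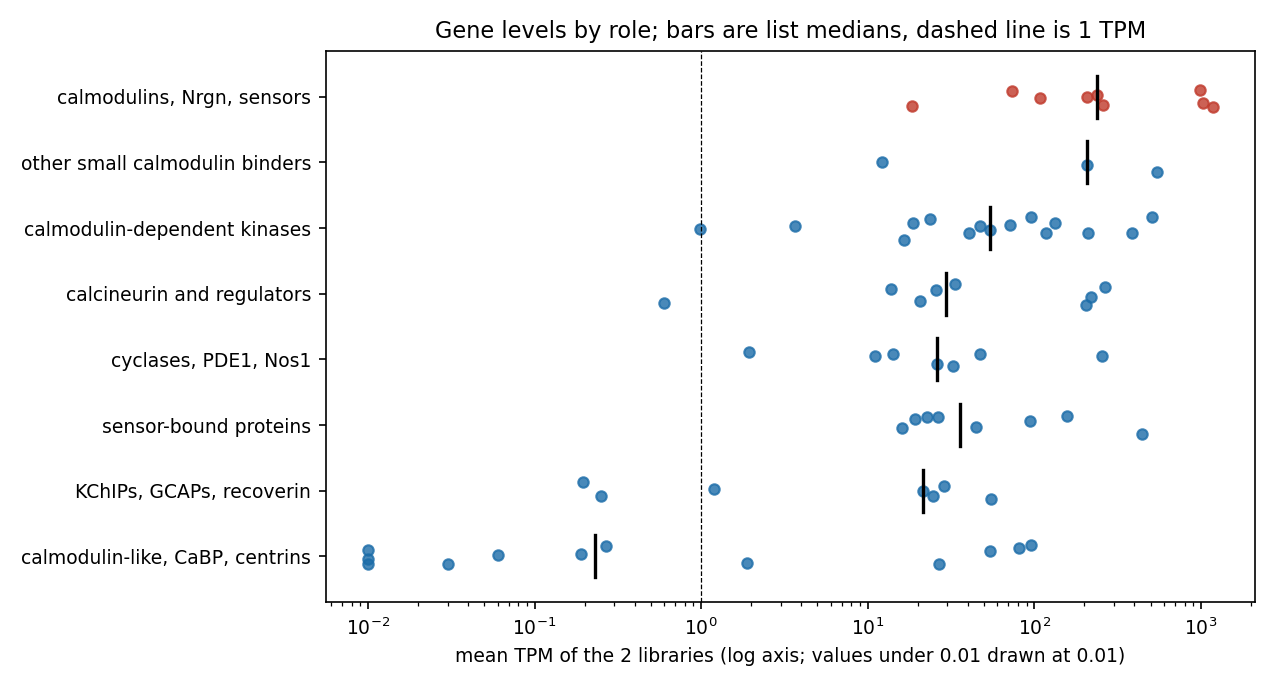
Mean TPM of the 2 libraries (log axis) for the 9 calmodulin, neurogranin and sensor genes (red) and for lists of related genes (blue); bars are list medians and the dashed line marks 1 TPM. The bar of the 9 genes is the highest, at 238 TPM, the mean level of Hpca, and that of the calmodulin-like group the lowest, 0.230 TPM. The 239 TPM given in the text is instead the mean of the medians of the 2 libraries.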

How the data were processed

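Total RNA of the left cerebral cortex was sequenced from 2 female B6CASTF1/J mice, 10 days old, with ERCC spike-ins, per the labels. The deposited README files describe expected counts and TPM, per gene and per transcript, that the authors made by aligning reads to mm10 with gene models M21. Estimated counts and TPM of a further transcript table were made by the authors without alignment, per the deposited README files. Not given in the sources used here are the tools, their versions and the level of the credible intervals. The intervals belong to the posterior mean TPM, so a TPM can lie outside its interval, as for Calm2. The reference is C57BL/6, and no allele was separated.

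Members and lists were chosen with earlier results of these data known. Spike-ins (96 rows, 0.413% and 0.401% of reads) and 26249 rows that name no gene (under 0.001% of reads) were left out. Expected counts were rounded and scaled with TMM (edgeR 4.0.16) over genes kept by its expression filter. The log2 ratio of the libraries had 0.5 added to each count. The scaling and the log2 ratio of the libraries were tested on simulated counts. Alternatives were DESeq2 1.42.0 size factors, total counts, spike-in totals, no filter, posterior means, a pseudocount of 1, and the alignment-free tables (31051988 and 31841570 reads) summed per gene. Levels between genes are compared in TPM, which is scaled by length. Effective lengths were shorter in the alignment-free tables, 1177 bases for Hpca-201 against 1426. Counting intervals and limits cover counting error only, and SDs describe these 2 animals.

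All 9 members were named. Of each related list, the 3 highest genes, the lowest, and any gene 2-fold apart were named, and of near copies those with reads. Pi4kb was named in addition. Marker lists are given as sums, and 1 marker is not reported here. Coding sequences were taken from GENCODE M21 and translated, with EF-hand and IQ motifs found by pattern.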

Additional observations from a re-analysis of the deposited data

How the results depend on the processing

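Of 39 alternatives over 8 results, 5 moved the result and 34 did not, where a count within 1.5 times the reported one, a median TPM within 1 SD of the replicates, or a median log2 ratio within the counting interval of the middle gene, was taken as not moved. The median TPM of the 9 genes was 483 after rescaling to nuclear protein-coding genes and 378 in the alignment-free tables, against 239 as deposited, and 219 to 259 with either replicate left out. The median log2 ratio between libraries was -0.046 with total counts. At a lower fold limit, 2 members differed between libraries (Hpcal1 and Nrgn) and 1 between quantifications (Hpcal1). Among the counts taken as not moved, detection at 10 TPM gave 8 genes, against 9 at 1 TPM. The alignment-free tables gave 4 neighbouring pairs beyond the spread, against 5 by alignment, and 8 pairs set by role, against 9. With either replicate left out, 9 genes were detected, 8 had 1 leading transcript and 0 were 2-fold apart between quantifications. No paired analysis was possible because all samples belong to 1 group. With 2 libraries, a difference between animals and one between library preparations cannot be told apart. The depth limits the transcripts more than the genes: Hpcal1-202 rests on 12.6 and 12.2 reads.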

Other observations

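The 23 genes that were 2-fold or more higher in replicate 1, Hpcal1 among them, were looked at after their values were seen. They included Nrp2, a semaphorin receptor, with a log2 ratio of 1.35, Ndst4, a heparan sulfate enzyme, with 2.30, and Fign with 1.56. These genes are examples only. With 2 libraries of 1 group, a likeness of pattern to Hpcal1 cannot be measured. Among genes of the calmodulin pathway, Camk2d was the kinase gene with the largest ratio, at 88.9 TPM in replicate 1 and 55.3 TPM in replicate 2, a log2 ratio of 0.57 that did not reach 2-fold. Ppp3r2 had 49 reads in replicate 1 and 18 in replicate 2, below the 100 reads asked for here.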
